A study of Mus musculus with 12 samples.

Results

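Bax, Bbc3, Pmaip1, Fas, Tnfrsf10b, Eda2r, Phlda3, Perp, Aen and Ei24 are genes that the transcription factor p53 is known to switch on and whose products act in cell death. They were taken by symbol from the deposited count tables, and all 10 were found among the 51826 gene identifiers of the forelimb table and the 55401 of the culture tables. They were proposed as a group after the forelimb result of these data was known, so their forelimb values are given as a description and the tests on them support nothing. The group was chosen by its level in Prx-cKO against WT forelimbs. The measurements were made by RNA sequencing of 12 mouse libraries in 6 groups of 2. Whole forelimbs were taken at E12.5 from wild-type (WT) embryos and from embryos in which a Prx-driven Cre deleted Impdh2 in limb mesenchymal progenitors (Prx-cKO). The limb's skin, vessels, blood and muscle precursors lie outside the reach of that Cre, so a whole limb mixes deleted and undeleted cells. Bone marrow cells came from WT mice and from mice lacking Impdh2 in the myeloid lineage through a LysM-driven Cre (LysM-cKO). All marrow cells were grown for 3 days with supernatant of L929 cells, which holds the macrophage growth factor M-CSF (equal to 20 ng/ml), and reseeded. The culture protocol then names 40 ng/ml of RANKL, the cytokine that turns macrophage precursors into osteoclasts. The culture libraries are titled R40D3 or R0D3, all carry 1 shared treatment label, and the titles are used here as names. Impdh2 makes guanine nucleotides. The labels do not say whether the 2 libraries of a group came from separate animals. The p-values therefore set a difference against the spread between these libraries only, which may not be the spread between animals.

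p53 is a sensor of DNA damage, of nucleotide shortage and of faulty ribosome assembly, and it raises transcription of genes that stop the cell cycle, repair DNA or kill the cell. Death through the mitochondrion runs from the small BH3-only proteins PUMA (the product of Bbc3) and NOXA (Pmaip1) to the pore-former BAX. Death from the cell surface runs through receptors such as FAS and the TRAIL receptor (Tnfrsf10b), which recruit the adaptor FADD and the protease caspase-8. In the embryonic limb, cell death removes the tissue between the digits, and p53 is otherwise held low by its own feedback genes.

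The stretches before the transcription starts of Eda2r and Phlda3, the 2 genes that stood highest over WT in the forelimb, are shown first. With them are the stretches of Bax and Ei24, which hold a p53 half-site there. They are shown because p53 binds target genes through pairs of such half-sites. For Aen the match alone is given. They were read from RefSeq promoter windows on GRCm38.p6, which cover 250 bases before to 50 after a start, and each line gives the 250 bases before the start, 5′ to 3′ on the gene's own strand. Capitals mark a match to the p53 half-site consensus, which reads the same on both strands, so that 1 search covers both.
Bax: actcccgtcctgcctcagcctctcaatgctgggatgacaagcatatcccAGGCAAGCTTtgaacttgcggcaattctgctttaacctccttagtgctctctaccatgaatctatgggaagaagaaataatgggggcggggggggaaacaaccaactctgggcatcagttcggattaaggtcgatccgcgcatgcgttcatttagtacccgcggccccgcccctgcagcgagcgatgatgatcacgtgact
Ei24: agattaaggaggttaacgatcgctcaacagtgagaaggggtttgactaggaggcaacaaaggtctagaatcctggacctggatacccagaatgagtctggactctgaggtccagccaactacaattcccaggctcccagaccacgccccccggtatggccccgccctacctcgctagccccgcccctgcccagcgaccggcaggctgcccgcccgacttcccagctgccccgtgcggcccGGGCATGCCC
Eda2r: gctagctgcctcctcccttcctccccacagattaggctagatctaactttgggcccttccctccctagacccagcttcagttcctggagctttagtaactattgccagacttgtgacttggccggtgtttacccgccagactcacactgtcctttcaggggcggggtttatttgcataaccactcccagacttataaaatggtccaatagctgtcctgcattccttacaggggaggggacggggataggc
Phlda3: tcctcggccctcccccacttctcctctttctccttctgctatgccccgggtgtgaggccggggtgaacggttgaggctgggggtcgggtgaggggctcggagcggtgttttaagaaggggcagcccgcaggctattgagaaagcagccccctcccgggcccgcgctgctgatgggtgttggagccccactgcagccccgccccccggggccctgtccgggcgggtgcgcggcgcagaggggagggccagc
The Bax stretch lies on the minus strand at chr7:45466899-45467148, and its match begins at position −201 from the start. The Ei24 stretch lies on the minus strand at chr9:36797335-36797584, with the match in the last 10 bases before the start. Aen held 1 match, GGGCTTGTCC at chr7:78895937-78895946 on the plus strand, which fell in both of its overlapping windows. The windows of Eda2r (minus strand, chrX:97377210-97377459 before the start), Phlda3 (plus strand, chr1:135765835-135766084), Fas and Bbc3 held no exact match. Windows were found for 7 of the 10 genes (10 windows), not for Perp, Pmaip1 or Tnfrsf10b, and 3 of the 7 genes held a match. Of all 32851 mouse promoter windows of 300 bases, 2745 (8.36%) held one. That share is per window, while the 3 of 7 are genes, and Aen and Bbc3 had more than 1 window each. The 2 shares are therefore not compared. No window of these genes held more than 1 match, so none held a pair of exact half-sites. A match of letters is not a bound site, and these windows do not cover introns. The search allowed no mismatch, so half-sites that differ from the consensus were not marked, and a window without a match may still hold a p53 site.

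The totals were 28892215 to 69466572 counts in the forelimb libraries and 16009146 to 19221865 in the cultures. The deleted gene was lower in each knockout: Impdh2 was at 260 and 272 CPM (read counts scaled to a common library size) in WT forelimbs and at 170 and 199 CPM in Prx-cKO (69.3% left), and 30.1% and 28.5% were left in LysM-cKO at R40D3 and R0D3. By Xist counts, each forelimb genotype had 1 female-type and 1 male-type library. The female-type libraries were WT replicate 1 and Prx-cKO replicate 2. All 10 genes passed the filter on low counts in both sets, among 19987 forelimb genes and 14030 culture genes tested, although Perp passed in the cultures only through R40D3.

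In the forelimb, 9 of the 10 genes were higher in both Prx-cKO libraries than in both WT libraries. The median log2 fold change of the 10 was 1.14, against −0.03 over all genes tested. Summed over the 10 genes, the level was 363 and 339.6 CPM in WT and 648 and 801 CPM in Prx-cKO. Among all forelimb genes tested, 22.2% were higher without overlap between the groups. Perp was the exception. In the values that follow, by role, replicates 1 and 2 are in that order and the changes are log2 fold changes with the standard error (SE) of the edgeR fit.

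The receptors included the largest difference and the lowest levels. Eda2r encodes XEDAR, a receptor of the TNF family for 1 form of the ligand ectodysplasin A. Its level was 0.898 and 1.91 CPM in WT, against 30.2 and 37.2 CPM in Prx-cKO. These values rested on 38 and 137 counts in WT against 867 and 1898. The groups were far apart, with a log2 fold change of 4.53 (SE 0.39), the 17th highest of the 19987 genes. Eda2r lies on the X chromosome (minus strand, 97333840 to 97377216), and the 2 WT libraries, of different sex type, differed from each other as well. Within the female-type pair of libraries the log2 ratio was 5.37 and within the male-type pair 3.98, so it was higher in Prx-cKO in either pair.

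Fas, the classic death receptor, was rare in the limb. Its level was 0.592 and 0.307 CPM in WT (25 and 22 counts), against 1.25 and 1.57 CPM in Prx-cKO (36 and 80 counts). The groups did not overlap, and the log2 fold change was 1.75 (SE 0.52). Tnfrsf10b, the mouse TRAIL receptor, was at 15.4 and 15.5 CPM in WT, against 19.9 and 21.6 CPM in Prx-cKO. That difference was small beside the other receptors, at 0.42 (SE 0.19). Tnfrsf10b shares a stretch of 405 bases at 97.5% identity with Gm15574, which had at most 1 count in any forelimb library. It also shares 150 to 164 bases at 95.1% to 96.1% identity with 5 other genes, among them Senp1 (up to 6556 counts in a forelimb library), Usp6nl (4651) and Tcirg1 (2574, and up to 18581 in a culture), so the counts of Tnfrsf10b are uncertain.

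Bax, Bbc3 and Pmaip1 of the mitochondrial route, and Ei24, were all higher in Prx-cKO. Bax was at 93.1 and 80.8 CPM in WT, against 179.6 and 241 CPM in Prx-cKO, a log2 fold change of 1.28 (SE 0.20). Bbc3 was at 11.3 and 8.05 CPM in WT, against 18.2 and 20.2 CPM in Prx-cKO, a log2 fold change of 1.00 (SE 0.25). Pmaip1 was at 23.3 and 22.6 CPM in WT, against 41.8 and 45.5 CPM in Prx-cKO. The Pmaip1 change was 0.93 (SE 0.16). Ei24, a membrane protein of the endoplasmic reticulum that was found as a p53-induced gene, was at 92.3 and 108 CPM in WT, against 133 and 175 CPM in Prx-cKO. Its change was 0.62 (SE 0.20), the smallest of these 4, and the log2 ratio was 0.92 in the female-type pair and 0.29 in the male-type pair. Bax shares 192 exonic bases with Gm45808 and Ei24 shares 324 with Gm26787, but these neighbours had at most 18 and 7 counts in any forelimb library.

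The remaining 3 genes act beside these routes. Phlda3 encodes a small lipid-binding protein that keeps the survival kinase AKT off the membrane. Its level was 28.5 and 25.7 CPM in WT, against 85.3 and 115 CPM in Prx-cKO, a log2 fold change of 1.89 (SE 0.21). Aen, an exonuclease named for its part in apoptosis, was at 33.4 and 12.1 CPM in WT, against 71.7 and 80.0 CPM in Prx-cKO. Its WT libraries stood apart by more than its Prx-cKO libraries did, and the change of 1.74 had the largest SE after Fas (0.48). Perp encodes a membrane protein that p53 induces in dying cells and that desmosomes of the skin also need. Its level was 64.6 and 64.1 CPM in WT, against 67.3 and 62.9 CPM in Prx-cKO. Its groups overlapped, with a change of 0.02 (SE 0.14) that was −0.08 when library size alone was used for scaling.

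**Figure D1:**
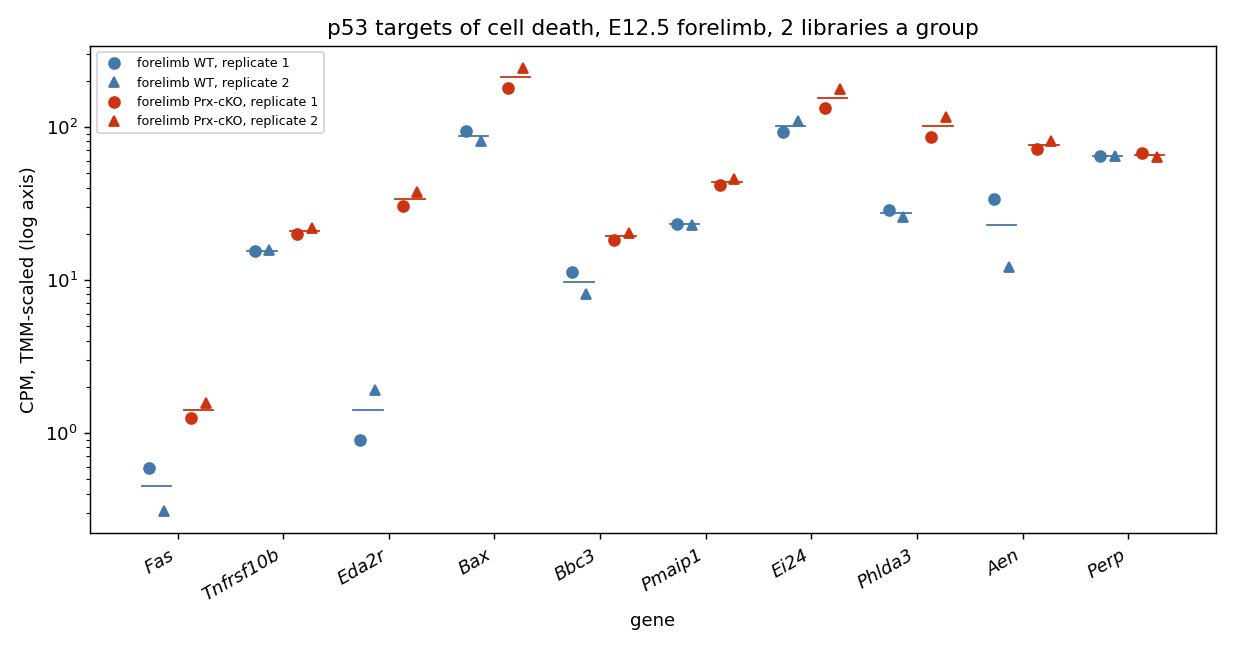
Level of each of the 10 genes in the 4 forelimb libraries, in CPM on a log axis; points are libraries and lines are means of 2. The Prx-cKO points lie above the WT points for 9 genes, with the widest gap for Eda2r (0.898 and 1.91 against 30.2 and 37.2 CPM) and overlap for Perp.

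After adjustment over all 19987 genes, 0 of the 10 passed 0.05 in the edgeR quasi-likelihood test, as did 0% of all genes. At an unadjusted p under 0.05, 8 of the 10 were higher (all but Tnfrsf10b and Perp), against 5.87% of all genes. By p, Eda2r stood at place 7 and Phlda3 at place 12 of 19987. DESeq2 called 5 of them higher (Bax, Pmaip1, Eda2r, Phlda3 and Aen), with 0.996% of all genes called higher. Since these values helped to choose the genes, nothing is read from the counts. The calls turned on single WT libraries. Without WT replicate 1, edgeR called 5 (Bax, Bbc3, Eda2r, Phlda3 and Aen; 1.35% of all genes called higher), and without WT replicate 2 it called 2 (Eda2r and Phlda3; 0.307% of all genes).

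**Figure D2:**
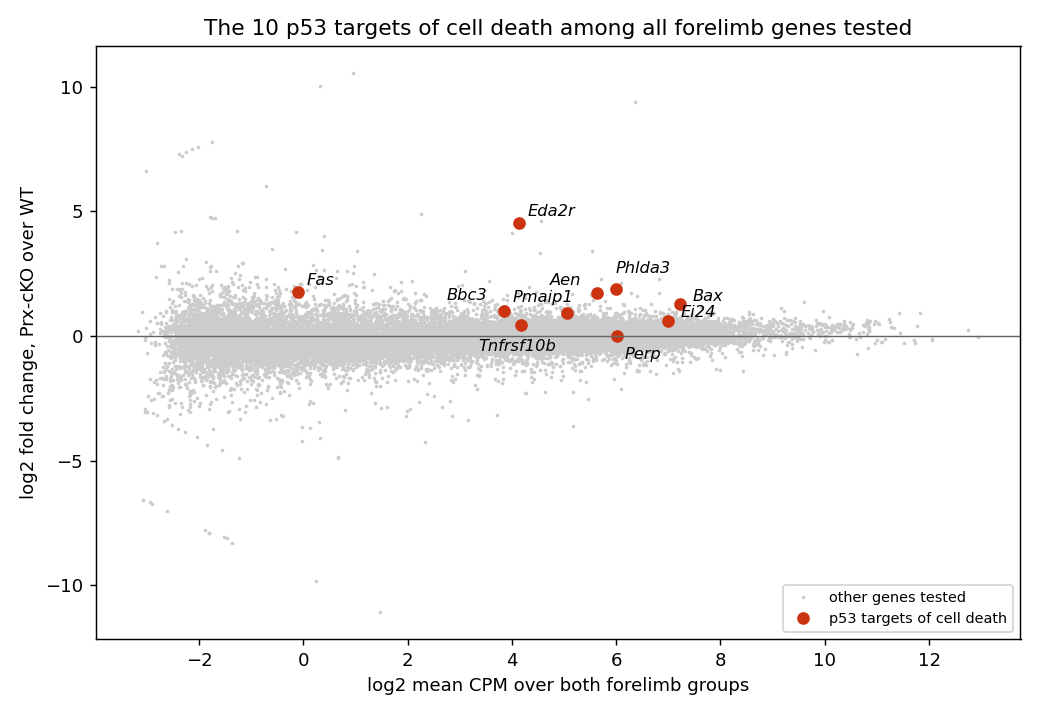
Log2 fold change of Prx-cKO over WT against log2 mean CPM for the 19987 forelimb genes tested (grey) with the 10 genes named (red). Eda2r stands highest of the 10 at 4.53, and Perp lies on the zero line.

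Levels per length, in CPM per kb of exon, put the genes in order within a group. In WT forelimbs Bax was highest at 55.2 ± 5.54, followed by Perp at 33.0 ± 0.172, Ei24 at 20.6 ± 2.34 and Phlda3 at 17.4 ± 1.23 CPM per kb (SD, n = 2). Pmaip1 followed at 8.39 ± 0.177, Bbc3 at 4.55 ± 1.07, Aen at 3.92 ± 2.60 and Tnfrsf10b at 2.84 ± 0.0129 CPM per kb (SD, n = 2). Eda2r, at 0.238 ± 0.121, and Fas, at 0.218 ± 0.0974 CPM per kb (SD, n = 2), were the lowest. The libraries of Bbc3 and Aen, of Aen and Tnfrsf10b, and of Eda2r and Fas overlapped, so these neighbours are not ordered. In Prx-cKO, Bax was again highest at 134 ± 27.7 CPM per kb, and Phlda3 came next at 64.4 ± 13.6 (SD, n = 2). Perp (33.3 ± 1.60) and Ei24 (31.6 ± 6.12, SD, n = 2) overlapped there. Eda2r reached 5.71 ± 0.840 CPM per kb (SD, n = 2) and lay above Tnfrsf10b (3.81 ± 0.221), whereas Fas stayed lowest at 0.683 ± 0.108 (SD, n = 2).

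The ligands of the receptors were close to 0 or overlapped between the groups, while Edar and Fadd were higher without overlap. Fasl, the ligand of FAS, was at 0 to 0.142 CPM in the forelimb libraries and Tnfsf10, the ligand TRAIL, at 0 to 0.195. Eda, the gene of ectodysplasin A, was at 7.11 and 9.31 CPM in WT, against 7.23 and 8.30 in Prx-cKO, with overlap. Edar, the other ectodysplasin receptor, was at 4.84 and 6.38 CPM in WT and 7.44 and 8.75 in Prx-cKO. Fadd was at 22.2 and 19.8 CPM in WT and 23.6 and 27.3 in Prx-cKO, neither of them called, and Casp8, which overlapped between groups, was at 10.5 to 17.2 CPM. Of the 9 death receptor signalling genes listed, 4 were higher and 5 lower, with a median log2 fold change of −0.05, and none was called.

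Other p53 targets were compared in the same way, by lists written with earlier results known. Of 22 targets of arrest and repair, 18 were higher in Prx-cKO and 4 lower, with a median log2 fold change of 0.42, and none was called by edgeR. The smallest p belonged to Ptprv (4.15, SE 0.23), Ccng1 (2.31, SE 0.14), Cdkn1a (2.12, SE 0.15), Dcxr (1.97, SE 0.25) and Sesn2 (1.68, SE 0.23), none of which passed. Of 9 further targets linked to death, 8 were higher, with a median of 0.30; Zmat3 was at 34.2 and 36.5 CPM in WT, against 70.1 and 85.3 in Prx-cKO. Pidd1 (0.89, SE 0.24), Siva1 (0.57, SE 0.21), Tap1 (0.82, SE 0.35) and Bid (0.30, SE 0.20) were next and did not pass. Of 9 feedback genes of p53, 4 were higher and 5 lower, with a median of −0.07, and Ccng1 again came first by p. Mdm4 (−0.20, SE 0.16), Trp53inp1 (−0.15, SE 0.15) and Ppm1d (0.11, SE 0.17) from that list differed little and did not pass. The lists overlap: Zmat3 stands in the arrest and repair list and in the death list, Ccng1 in the arrest and repair list and the feedback list, and Trp53inp1 in the feedback list and the death list.

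The 4 lists of death machinery, which share Bid and Apaf1 with the p53 target lists, had medians between −0.05 and 0.22. Among 8 further pro-apoptotic BCL2-family genes, 6 were higher, with a median of 0.22 and no call. The BH3-only gene Bmf had the smallest p and was lower (−0.72, SE 0.15), while the pore-formers Bak1 (0.42, SE 0.17) and Bok (0.71, SE 0.30) were higher. Of the survival genes 5 of 8 were tested, 2 higher and 3 lower. Bcl2, which holds BAX in check, was at 28.4 and 31.5 CPM in WT, against 19.6 and 18.2 in Prx-cKO, without overlap and without passing (−0.67, SE 0.18). Of 12 genes from the apoptosome and the executioner caspases with their inhibitors, 7 were higher and 5 lower, with a median of 0.06. Cycs, the gene of cytochrome c, came first by p (0.62, SE 0.18), then Htra2 (0.53, SE 0.16) and Birc2 (−0.33, SE 0.14), none of them called.

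Markers of other cell types also differed between the limbs, and in whole limbs a change in cell number cannot be told apart from a change in RNA per cell. All 11 myeloid markers tested of 12 were higher in Prx-cKO, with summed levels of 55.8 and 54.8 CPM in WT and 117 and 107 in Prx-cKO. Of 10 macrophage markers 9 were tested, 7 higher and 2 lower, and their sums overlapped, at 93.8 and 97.4 CPM in WT and 104 and 88.9 in Prx-cKO. Mertk, a receptor with which macrophages take up dead cells, was the largest part of each of these sums. It was lower without passing, at 57.8 and 59.6 CPM in WT and 32.8 and 26.7 in Prx-cKO (−0.98, SE 0.18). The overlap of the sums rests on Mertk, and the only other lower macrophage marker was Cd14 (−0.16, SE 0.47). All 10 endothelial markers were higher (205 and 187 against 282 and 270.2 CPM summed). Skeletal muscle markers summed to 373 and 367 CPM in WT and to 1013 and 487 in Prx-cKO, 9 of 10 higher. Limb mesenchyme markers lay lower, at 1741 and 1953 against 1308 and 1448 CPM, 6 of 10 lower, and all 10 chondrogenic markers were lower (1012 and 1113 against 435 and 342 CPM). For Perp, an epithelial gene as well, surface ectoderm markers are the nearest set, at 742 and 907 CPM in WT and 891 and 983 in Prx-cKO, 8 of 12 higher. No marker of these sets was at 0 in any forelimb library, and their part in the values above was not tested. In the 8 marrow culture libraries, 8 of the 10 genes lay below both Prx-cKO forelimb libraries, among them Eda2r at 1.28 to 4.43 CPM and Phlda3 at 22.0 to 33.5 CPM. The other 2 lay above them, Fas at 6.12 to 12.2 CPM and Bbc3 at 21.4 to 27.8 CPM. The forelimb and culture tables were normalised separately and their levels were not tested against each other. Nothing is read from them about which cells gave the forelimb values.

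The cultures asked whether the same genes differ when Impdh2 is missing from myeloid cells. No member passed at R40D3 or at R0D3, either in the main fit, which did not pair the replicates, or with the replicate number as a block. At R40D3 the edgeR test called 0 of the 10 (0.0143% of all 14030 genes were called), 2 of the 10 were higher at an unadjusted p under 0.05 (background 4%), and DESeq2 also called 0. The 2 were Bbc3 and Phlda3. Bbc3 was at 22.3 and 21.4 CPM in WT, against 27.8 and 25.1 CPM in LysM-cKO, 0.27 on the log2 scale (SE 0.11, edgeR p 0.0331, adjusted p 0.648). Phlda3 was at 25.6 and 22.0 CPM in WT, against 29.7 and 30.7 CPM in LysM-cKO, 0.34 on the log2 scale (SE 0.12, edgeR p 0.0264, adjusted p 0.648). Bax was at 109 and 113 CPM in WT, against 124 and 138 CPM in LysM-cKO (0.24, SE 0.12, edgeR adjusted p 0.658). In these 3 of the 10 the groups did not overlap, against 19.7% of all genes that were higher without overlap. Of the 22 arrest and repair targets, 16 were higher and 6 lower in LysM-cKO at R40D3, with a median of 0.15 and no call. Of these 22, 6 were higher at an unadjusted p under 0.05 in edgeR and 9 were higher without overlap. Zmat3 (0.44, SE 0.09), Ephx1 (0.49, SE 0.11), Ccng1 (0.31, SE 0.08), Cdkn1a (0.51, SE 0.14) and Polk (0.36, SE 0.10) had the smallest p. Of 9 further death targets, 6 were higher and 3 lower, with a median of 0.26 and no call.

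The other 7 of the 10 genes overlapped between genotypes at R40D3. Fas was at 9.05 and 7.09 CPM in WT, against 12.2 and 7.95 CPM in LysM-cKO. Pmaip1 was at 26.4 and 32.4 CPM in WT, against 18.8 and 33.5 CPM in LysM-cKO, so that 1 knockout library lay below and 1 above both WT libraries. Perp was at 1.57 and 3.18 CPM in WT, against 1.38 and 2.65 CPM in LysM-cKO. Tnfrsf10b (5.30 to 6.98 CPM), Eda2r (1.28 to 3.38 CPM), Aen (26.6 to 29.3 CPM) and Ei24 (92.7 to 107 CPM) overlapped between the genotypes. Within the pairs of equal replicate number, both log2 ratios of LysM-cKO over WT were above 0 for Fas (0.43 and 0.17) and Eda2r (0.09 and 0.08) and below 0 for Perp (−0.19 and −0.26) and Ei24 (−0.10 and −0.10). They differed in sign for Pmaip1, Tnfrsf10b and Aen, and the fit with the replicate number as a block called none of the 10. Osteoclast markers, all 12 lower in LysM-cKO, summed to 27058 and 39725 CPM in WT and to 13700 and 25581 in LysM-cKO, and their part in the values of Pmaip1 and Perp was not tested.

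At R0D3, edgeR and DESeq2 called 0 of the 10 (0.0143% of all genes were called by edgeR), and 0 had an unadjusted p under 0.05. Phlda3 was again higher without overlap, at 24.5 and 28.2 CPM in WT and 30.1 and 33.5 in LysM-cKO (0.27, SE 0.12, edgeR adjusted p 0.997). Pmaip1 was at 13.2 and 10.9 CPM in WT, against 14.0 and 15.2 in LysM-cKO. With these, 2 of the 10 were higher without overlap (17.5% of all genes), and 2 were lower without overlap (14.8% of all genes). The lower ones were Bbc3, at 26.27 and 26.24 CPM in WT and 25.6 and 23.7 in LysM-cKO, and Fas, at 9.26 and 10.1 CPM in WT and 8.74 and 6.12 in LysM-cKO. Bax was at 133 and 158 CPM in WT, against 132 and 159 in LysM-cKO, nearly the same in the libraries of each replicate number. Perp had 0 and 0 counts in WT and 1 and 0 in LysM-cKO, too few for a fold.

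**Figure D3:**
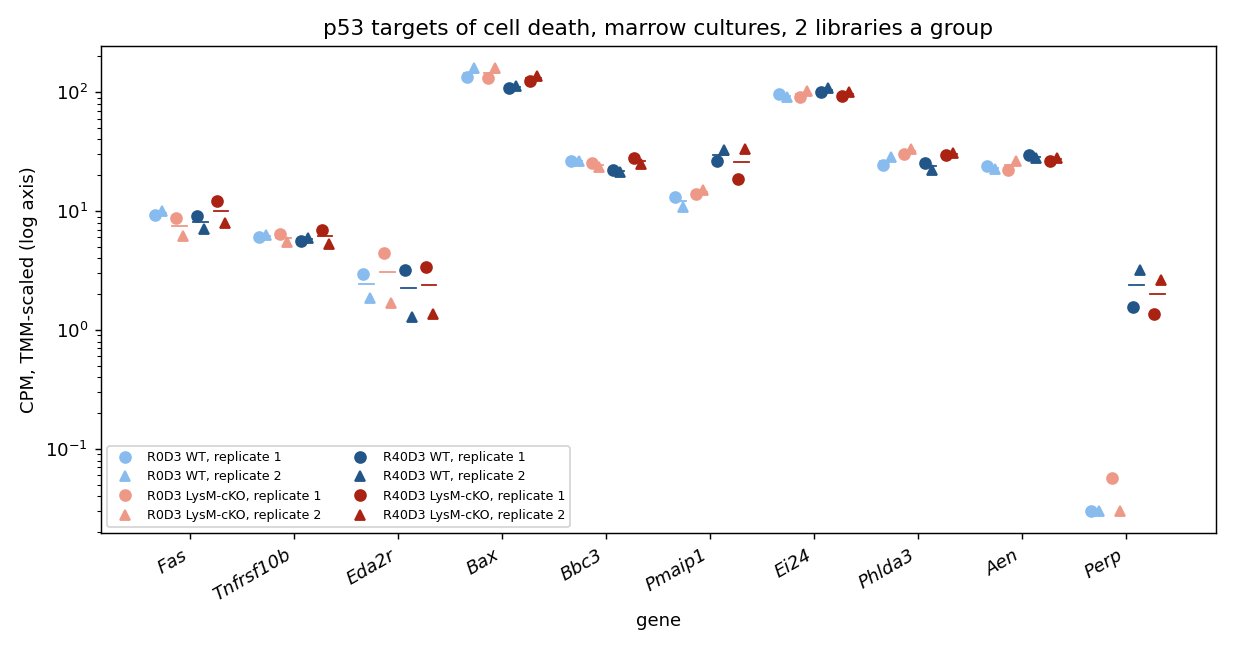
Level of each of the 10 genes in the 8 culture libraries, in CPM on a log axis; points are libraries, lines are means of 2, and values under 0.03 CPM are drawn at 0.03 with no mean line. Perp and Pmaip1 are higher at R40D3 than at R0D3 in either genotype.

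**Figure D4:**
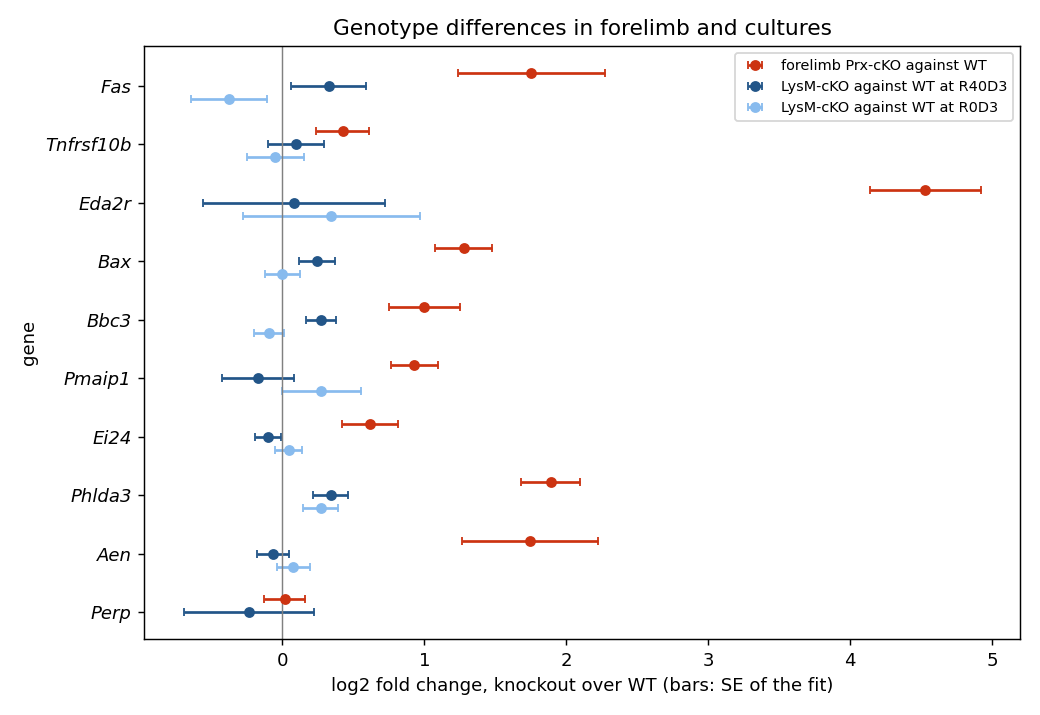
Log2 fold change of knockout over WT for the 10 genes in the forelimb and in both cultures, with bars of 1 SE from the edgeR fit. The forelimb points run from 0.02 (Perp) to 4.53 (Eda2r), and the culture points lie between −0.38 and 0.34; Perp at R0D3 is left out because both groups had at most 1 count.

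Whether the effect of genotype differed between the cultures was tested as an interaction. Of the 10, edgeR and DESeq2 called 0, as they did of all genes (0%), and 1 (Bbc3) had a higher value at an unadjusted p under 0.05, against 0.82% of all genes. For Bbc3 the genotype effect at R40D3 exceeded that at R0D3 by 0.37 (SE 0.15, edgeR p 0.0407, adjusted p 0.9999). The same difference was 0.70 for Fas (SE 0.37) and 0.07 for Phlda3 (SE 0.17), with adjusted p of 0.9999 in edgeR for both. Levels in forelimb and cultures were not tested against each other.

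Between the culture titles, Perp and Pmaip1 differed most. In WT, Perp had 0 and 0 counts at R0D3 and 30 and 52 at R40D3 and was at least 25.6-fold higher there, taking 3 counts over the group as the floor. In LysM-cKO it had 1 and 0 counts at R0D3 and 26 and 43 at R40D3, a ratio of 66.5 (exact 95% interval 11.6 to 2666). Intervals and floors cover counting error only. Perp passed the filter on low counts only through R40D3, so no test of it is given here. Pmaip1 rose in WT from 13.2 and 10.9 CPM to 26.4 and 32.4 CPM, 1.28 on the log2 scale (SE 0.27, edgeR adjusted p 0.0173). In LysM-cKO Pmaip1 went from 14.0 and 15.2 CPM to 18.8 and 33.5 CPM without passing (0.83, SE 0.27, edgeR adjusted p 0.100). The fit with the replicate number as a block gave 0.81 there and an adjusted p of 0.0292, and without R40D3 LysM-cKO replicate 1 the value was 1.20 (edgeR adjusted p 0.0098). DESeq2 gave 0.82 with an adjusted p of 0.0411. Of the 9 genes other than Perp, edgeR thus called 1 higher in WT, where 11.4% of all genes were, and 0 in LysM-cKO, where 6.99% were and where Pmaip1 alone was higher at an unadjusted p under 0.05 (0.0152). The call of Pmaip1 in WT was lost without R0D3 WT replicate 1 (0.0824), R0D3 WT replicate 2 (0.126) or R40D3 WT replicate 2 (0.138).

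The source of the Perp reads was set beside 2 marker lists. Surface ectoderm markers summed to only 0.485 to 1.59 CPM in the cultures, with 6 to 9 of 12 at 0, whereas osteoclast markers summed to 623 to 798 CPM at R0D3 and to 13700 to 39725 at R40D3. All 12 osteoclast markers were higher at R40D3 without overlap in either genotype, as were 4610 of all 14030 genes in WT and 3830 in LysM-cKO. At R0D3 Calcr was at 0 CPM, and Oscar, Car2 and Ocstamp had group means of 0.0311 to 0.117 CPM. These markers, like Perp, were tested only through R40D3, so no test of the list is given here. Within each genotype the R40D3 replicate 2 library was the higher one for Perp, for Pmaip1 and for the osteoclast sum. Whether the share of osteoclasts sets the levels of Perp and Pmaip1 was not tested.

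None of the other 8 members passed between R40D3 and R0D3 in the main edgeR test, which did not pair the replicates. Bax in WT was at 133 and 158 CPM at R0D3 and at 109 and 113 CPM at R40D3, −0.40 on the log2 scale (SE 0.12, edgeR adjusted p 0.0711). It passed in 3 alternatives, with the replicate block (−0.39, adjusted p 0.00513), in DESeq2 (−0.41, adjusted p 0.0434) and in the edgeR fit of only the 4 libraries compared (−0.40, adjusted p 0.0433). In LysM-cKO the Bax value was −0.15 (SE 0.12, edgeR adjusted p 0.520). Bbc3 in WT was at 26.27 and 26.24 CPM at R0D3 and at 22.3 and 21.4 at R40D3 (−0.26, SE 0.11, edgeR adjusted p 0.139), and Aen in WT went from 23.8 and 22.4 to 29.3 and 28.0 CPM (0.31, SE 0.12, edgeR adjusted p 0.116). Fas, Tnfrsf10b, Phlda3 and Ei24 had log2 fold changes between −0.25 and 0.45 in the 2 genotypes. Eda2r was low throughout, at 21 to 77 counts, and replicate 1 was higher than replicate 2 in all 4 culture groups, at 2.97 to 4.43 against 1.28 to 1.87 CPM. Stromal fibroblast markers summed to 442 and 535 CPM in the LysM-cKO replicate 2 libraries and to 1298 to 1686 in the other 6, and their part in this split was not tested.

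The order of levels in the cultures differed from that in the limb mainly for Perp and Fas. In R0D3 WT cultures Bax was highest at 92.5 ± 11.1 CPM per kb, then Ei24 at 19.2 ± 0.678, Phlda3 at 16.9 ± 1.68 and Bbc3 at 12.4 ± 0.0106 (SD, n = 2). Fas at 4.69 ± 0.278, Pmaip1 at 4.41 ± 0.606 and Aen at 3.98 ± 0.176 CPM per kb (SD, n = 2) followed and are not ordered, since Pmaip1 overlapped both of the others. Tnfrsf10b at 1.14 ± 0.0369 and Eda2r at 0.410 ± 0.133 CPM per kb (SD, n = 2) were low, and Perp was at 0. At R40D3 in WT, Pmaip1 reached 10.7 ± 1.56 CPM per kb and overlapped with Bbc3 at 10.3 ± 0.318 (SD, n = 2).

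Between R40D3 and R0D3 in WT, 11.4% of all genes were called higher and 5.52% lower, in LysM-cKO 6.99% higher and 3.15% lower, and the lists overlap as given above. In WT, 2 of 22 arrest and repair targets were called higher and 6 lower, with Plk2 (−1.25, SE 0.14, edgeR adjusted p 0.00161) and Sesn1 (−0.50, SE 0.07) among the lower and Fdxr (1.41, SE 0.27) among the higher. Of the 9 other death targets, 3 were called lower (Bid, Zmat3 and Triap1) and none higher. Bid, the BH3-only protein that links death receptors to the mitochondrion, fell by 0.86 on the log2 scale in WT (SE 0.12, edgeR adjusted p 0.00335). In LysM-cKO it fell by 0.65 (SE 0.11, edgeR adjusted p 0.0141). Of the survival genes Bcl2l1, the gene of BCL-XL, fell by 1.11 in WT (SE 0.17) and by 1.29 in LysM-cKO (SE 0.17, edgeR adjusted p 0.00548 and 0.00525). The Bcl2a1 copies are near identical and their counts are uncertain. Casp8 rose from 93.3 and 87.7 to 133 and 132 CPM in WT (0.55, SE 0.08, edgeR adjusted p 0.00384), and Traf6, the adaptor of RANK, rose by 1.08 (SE 0.11). Cycs (2.05, SE 0.33), Birc3 (111 against 50.9 CPM) and Birc2 (0.64, SE 0.14) were the called members of the executioner list in WT, all higher. Fasl had at most 1 count in any culture library.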

How the data were processed

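The authors deposited raw counts of reads for each Ensembl identifier; the 4 forelimb libraries share a table and the 8 cultures have 1 per replicate number. The submitters' processing notes name FastQC 0.11.2, Trimmomatic 0.36, HISAT2 2.1.0, DESeq2 1.12.4 and GRCm38, without role; the counting tool, annotation release and strand use are not given in the sources used here. RNA came from TRIzol and an mRNA kit, per the labels' protocols. Symbols matched 99.63% of forelimb and 99.53% of culture identifiers; positions and exonic lengths are from GENCODE M21 on GRCm38.

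Counts were filtered with filterByExpr, scaled by TMM and tested two-sided with the edgeR 4.0.16 quasi-likelihood method in R 4.3.3 (legacy = FALSE), Benjamini-Hochberg adjusted over all genes, threshold 0.05. The forelimb was fitted alone and the 8 cultures together, both by group means. The main culture fit held no replicate block, so its tests did not use the pairing described below. The block was run as an alternative. SE is the absolute log2 fold change over the square root of F. CPM uses TMM-scaled library sizes. DESeq2 1.42.0, other scalings, filters, blocks and left-out libraries were alternatives. The scripts were tested on simulated data. The members and lists were chosen with earlier results of these data known. Named were Impdh2, the 10 members, up to 5 genes per list with the smallest p (called ones first), and the receptors' partners. Genes of the lists were not named in every comparison. Of the genes so chosen, 1 feedback gene of p53 is left out of the text and counted in its list. Deviations of same-numbered libraries from group means correlated at 0.343 to 0.609 over the 6 pairs of culture groups, which were also deposited by number, so the numbers were taken to pair the cultures; in the forelimb (0.261, 1 pair of groups) the number was not taken to pair.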

Additional observations from a re-analysis of the deposited data

Results flagged for a closer look

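Bbc3 was flagged by a search of the members in these data for opposite differences without overlap. LysM-cKO lay above WT without overlap at R40D3 (0.27, SE 0.11) and below WT without overlap at R0D3, where the change was small (−0.09, SE 0.11). The difference of the log2 fold changes was 0.37 (SE 0.15), with an edgeR p of 0.0407 and an adjusted p of 0.9999, so it did not pass over all genes.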

How the results depend on the processing

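Of 720 alternative values of the members' log2 fold changes, 657 kept their direction and side of the threshold, 7 fell short of it, 18 passed it and 38 changed sign, over 20 of 58 results, none of them called and none above 0.35 in size. Leaving out 1 library gave these ranges for the results that changed sign: in the forelimb Perp −0.023 to 0.068. The ranges were, for genotype at R40D3, Pmaip1 −0.66 to 0.21, Fas −0.0035 to 0.58, Tnfrsf10b −0.10 to 0.26, Eda2r −0.73 to 0.91, Perp −0.77 to 0.34, Aen −0.12 to 0.00082. The ranges were, for genotype at R0D3, Bax −0.14 to 0.13, Tnfrsf10b −0.19 to 0.052, Eda2r −0.54 to 0.86, Aen −0.050 to 0.17, Ei24 −0.047 to 0.10. The ranges were, for R40D3 against R0D3 in WT, Eda2r −0.94 to 0.35. The ranges were, for R40D3 against R0D3 in LysM-cKO, Tnfrsf10b −0.17 to 0.18, Eda2r −1.18 to 0.50, Phlda3 −0.15 to 0.0065, Ei24 −0.097 to 0.089. The ranges were, for the interaction, Tnfrsf10b −0.039 to 0.32, Eda2r −1.06 to 0.63, Phlda3 −0.033 to 0.19. Other sign changes were Perp in the forelimb with library size alone (−0.080) or no filter (−0.019), Bax for genotype at R0D3 with library size alone (0.014), and Ei24 for R40D3 against R0D3 in LysM-cKO with library size alone (0.031), at least 1 CPM in 2 libraries (0.0022) or only the 4 libraries compared (0.0071). In the forelimb DESeq2 called 5 members of 390 genes, a term for sex gave 1 gene, against 0 without it, and leaving out 1 library gave 0 to 5 members and 0 to 603 genes; library size alone moved the median of all genes from −0.03 to −0.13. For genotype at R40D3, 2 genes were called, against 0 with library size alone, 23 in DESeq2, 30 with the replicate block, 0 in only the 4 libraries compared and 0 without any 1 library; at R0D3 the counts were 2, then 7 in DESeq2, 0 in the 4 libraries and 0 without any 1 library. The members' counts that follow include Perp, which passed the filter on low counts only through R40D3, so its calls there support nothing. For R40D3 against R0D3 in WT, 2367 genes and 2 members became 2368 and 3 in DESeq2, 3977 and 3 with the replicate block, 2796 and 3 in only the 4 libraries compared, and 689 to 1699 genes with 0 to 2 members without 1 library. In LysM-cKO, 1422 genes became 2983 with the replicate block, 533 in the 4 libraries and 399 to 1317 without 1 library; members called were 2 in DESeq2, 2 with the replicate block and 0 to 2 without 1 library. The block changed no call of a member besides Bax and Pmaip1. Where a group kept 1 library, that library was assumed to vary like the other groups. Depth limits Fas in the forelimb and Eda2r and Perp in the cultures, which had under 100 counts per library.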
